A study of Mus musculus with 15 samples.

Results

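Lipopolysaccharide (LPS), the glycolipid of the Gram-negative bacterial outer membrane, was compared with vehicle in mouse peritoneal macrophages that carried no added fatty acid. The comparison holds 7 of the 15 arrays of the series, selected by their sample titles. LPS-treated cells gave 4 arrays (experiments 1 to 4) and unstimulated cells gave 3 (experiments 1, 3 and 4). The macrophages had been drawn into the abdominal cavity of mice with thioglycollate broth, an irritant, and were selected by adherence to plastic. RNA was taken after 24 h with LPS (10 ng/ml) or with vehicle. The labels name neither a genetic change in either group nor the strain, sex or age of the mice. The other 8 arrays, of fatty acid-loaded cells with and without LPS, served to estimate the spread and for the last comparison below.

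LPS is handed by CD14 to a complex of MD-2 and Toll-like receptor 4. From there the adaptors MyD88 and TRIF lead to the transcription factors NF-kB and AP-1 and to interferon regulatory factors. The TRIF branch induces type I interferon, which acts back on the cells through JAK kinases and STAT factors. Both branches are known to induce cytokines together with inhibitors of their own signalling. An array of a whole culture cannot tell fewer cells of a type from less RNA per cell.

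The labelled cell type was checked first. Of 14 macrophage markers, 12 were tested, and their summed linear intensity lay between 49478 and 54910 on the unstimulated arrays and between 47552 and 51619 on the LPS arrays. Among them 4 rose and 4 fell (2 and 0 under median scaling), and the ranges of the sum overlapped. Markers of neutrophils (6 of 10 tested) summed to between 624 and 732 without LPS and between 896 and 1319 with it. Among them S100a8, an alarmin of neutrophils and monocytes, rose by 1.09 ± 0.22 and the peptide gene Camp by 0.33 ± 0.09, lactoferrin (Ltf) fell by 0.53, and the granule genes Mpo and Elane differed by -0.03 and 0.02. For mesothelial cells and fibroblasts, 9 of 12 markers summed to between 632 and 664 and between 922 and 1162. There the collagen genes Col1a1 and Col3a1 differed by 0.05 and -0.05 and the matrix proteoglycan gene Dcn, the 1 gene called, rose by 2.26 ± 0.23. Of 12 T and NK cell markers only Cd2 was tested (-0.11), and of 8 B cell markers Cd22 fell by 0.43 while Cd79b, Ms4a1 and Blk differed by -0.13 to 0.14. Dendritic cell markers (7 of 9 tested) summed to between 462 and 498 without LPS and between 667 and 1177 with it, where Batf3 (2.18 ± 0.28) was the 1 gene called and the list median was 0.09. Those of eosinophils and mast cells (3 of 9) summed to between 189 and 194 and between 213 and 352, where Kit was the 1 gene called, at least 2.03-fold higher (adjusted p = 0.0081). The part of other cells in the results was not tested. The calls of Camp and Cd22 were lost under median scaling.

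All differences below are LPS minus unstimulated on the log2 intensity scale, ± SE, from a limma fit across 12984 genes, and a gene was called at an adjusted p below 0.05. LPS raised 1164 genes, 8.96% of those tested, and lowered 1728, or 13.3%. Of the raised genes 397 changed at least 2-fold, 150 at least 4-fold and 35 at least 16-fold. Of the lowered genes 392, 52 and 2 did so. The arrays of the groups did not overlap for 3816 genes (29.4% of those tested), among them 2782 of the 2892 called. In 2864 of the called genes the difference within each of experiments 1, 3 and 4 had the sign of the group difference. The calls were made from these same arrays, so this is no separate support. The share over all genes tested was not counted. When the arrays were scaled to a common median instead of quantile normalized, 556 genes rose (4.28%) and 371 fell (2.86%), so that rises made up 60.0% of the calls in place of 40.2%, while the median over all genes was -0.015 under quantile normalization and 0.01 under median scaling. The fatty acid array of experiment 1, which lies outside the comparison but in the fit, stood apart from the others. Its 95th percentile of deposited log2 signal was 7.77, against 8.53 to 9.57 on the others, and without it median scaling called 853 genes higher and 674 lower. The count under median scaling is given beside the counts below that it moved by over 1.5 times.

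The genes that rose most included many secreted proteins. Il1b, the pro-inflammatory cytokine interleukin-1 beta, read 5.89, 6.00 and 6.30 on the unstimulated arrays of experiments 1, 3 and 4 and 13.85, 13.94, 14.01 and 13.81 on the LPS arrays of experiments 1 to 4. The groups lay far apart, for a difference of 7.84 ± 0.10 (229-fold, adjusted p = 5.5e-16). The unstimulated arrays of experiments 1 and 3 lay below their lowest signal above background (6.03 and 6.02), so the fold and the narrow unstimulated range depend on that floor. Fpr2, a receptor for formylated bacterial peptides, went from 5.99, 6.88 and 6.08 to 12.79, 12.88, 13.67 and 12.96, that is by 6.76 ± 0.32. Inhba, a subunit of activins, went from 6.29, 6.42 and 6.04 to 12.46, 12.26, 12.27 and 12.14 (6.03 ± 0.14), with all LPS arrays within a narrow band. Serpinb2, an inhibitor of plasminogen activators, went from 6.21, 6.65 and 6.14 to 11.73, 11.67, 13.17 and 11.76 (5.75 ± 0.35), and its array of experiment 3 stood above the other LPS arrays. Lcn2, a protein that withholds siderophore-bound iron from bacteria, went from 5.92, 6.10 and 6.14 to 12.03, 11.55, 12.02 and 10.92 (5.58 ± 0.31). The remaining genes among the 12 were H2-M2 (6.43 ± 0.19), a class I-like MHC gene, and the chemokine and interferon-induced genes Cxcl1, Ccl5, Ifit3, Ccl7, Cxcl2 and Isg15, whose values stand with their groups below.

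The genes that fell most began with a cell-cycle inhibitor. Cdkn1c, an inhibitor of cyclin-dependent kinases, read 12.81, 12.55 and 12.88 on the unstimulated and 7.51, 8.02, 7.96 and 8.06 on the LPS arrays, a difference of -4.86 ± 0.26 or 29-fold (adjusted p = 6.3e-09). Cd93, a surface lectin of myeloid and endothelial cells, went from 11.22, 11.07 and 10.84 to 6.88, 7.32, 6.58 and 7.05 (-4.08 ± 0.20). Sort1, a sorting receptor between Golgi and lysosome, went from 10.04, 10.23 and 10.17 to 6.79, 7.10, 6.61 and 6.24 (-3.46 ± 0.42). Timp2, an inhibitor of metalloproteinases, went from 11.38, 11.30 and 11.32 to 8.53, 7.97, 7.60 and 7.64 (-3.40 ± 0.24). The genes that rose and fell most were picked among called genes without overlap between the groups, so its absence here follows from that choice. Differences of the other 8 ran from -3.10 to -2.81: Slc46a3, a transporter of the lysosome, the diacylglycerol lipase Daglb, the sialyltransferase St6gal1, the kinase Matk, the nuclear receptor Pparg, the mannose receptor Mrc1, the epoxide hydrolase Ephx1 and the adhesion receptor Adgre5. For Pparg the call rests on the brightest probe (-3.03 ± 0.20), since its other probes differed by -0.74 and 0.20.

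**Figure D1:**
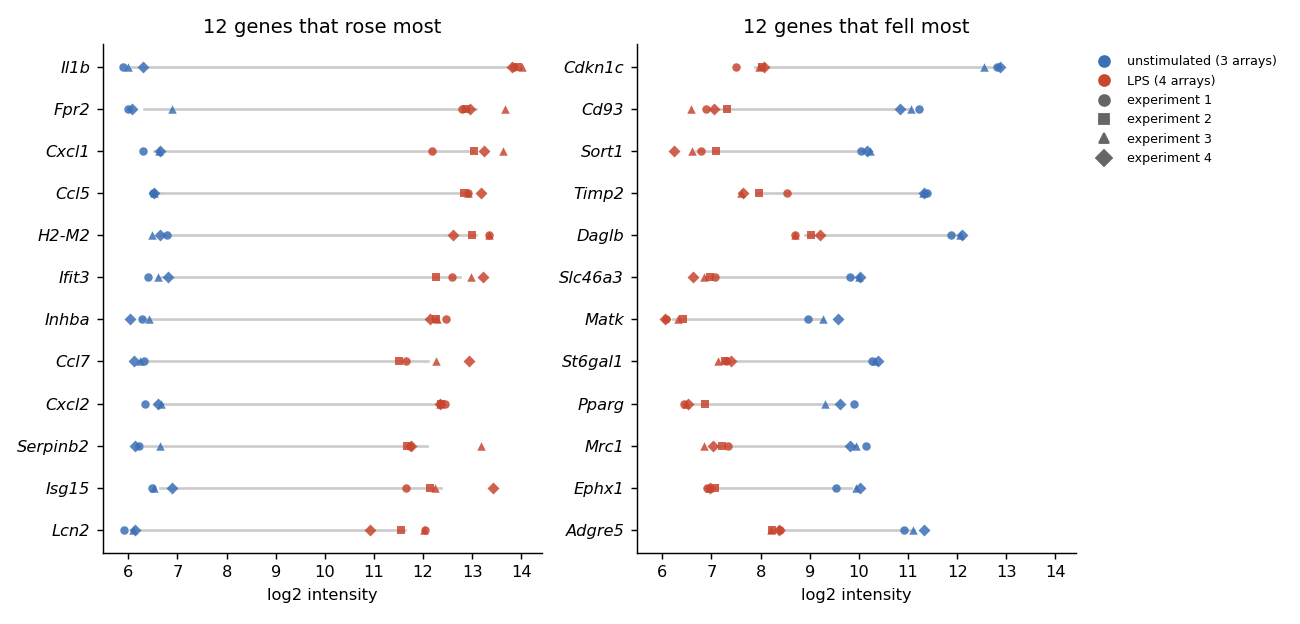
Log2 intensity of the 12 genes that rose most (left) and the 12 that fell most (right) on each array; colour gives the group (3 unstimulated and 4 LPS arrays), the symbol gives the experiment, and grey lines join the group means. The genes were picked among those without overlap between the groups. Isg15, Ccl7, Cxcl1 and Serpinb2 spread more over the LPS arrays than Il1b or Cxcl2.

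Interleukins rose in 2 families. Of 12 genes tested of the interleukin-1 family and the inflammasome, 8 rose and none fell, with a median of 0.98 against -0.015 for all genes, and 5 rose under median scaling. Il1a read 8.28, 8.29 and 8.46 without and 13.79, 13.71, 14.10 and 13.48 with LPS (5.42 ± 0.16). The receptor antagonist Il1rn rose by 2.35 ± 0.54, with the LPS arrays between 10.61 and 12.55. Casp4, the mouse caspase-11 that senses cytosolic LPS, rose by 2.54 ± 0.26, Casp1 by 1.16 ± 0.25 and the pore-forming Gsdmd by 0.97 ± 0.16. Nlrp3 lay below background on every unstimulated array and was at least 1.72-fold higher with LPS (adjusted p = 0.025), a value led by the array of experiment 1 (7.93 against 6.25 to 6.59). Pycard (-0.09), Il18 (-0.02), Il18bp (0.02) and Il1r1 (0.05) did not pass. In the family of interleukins 6, 10 and 12, 6 of 11 rose and none fell. Il12a, the p35 subunit of interleukin-12, went from 5.88, 6.07 and 5.96 to 10.69, 10.79, 10.82 and 10.30 (4.68 ± 0.17). Oncostatin M (Osm) rose by 3.17 ± 0.28, Ebi3, a subunit of interleukin-27, by 1.55 ± 0.16, and Il27, the other subunit, by 1.06 ± 0.23. Il6 went from 5.97, 6.05 and 5.92 to 7.76, 7.13, 7.60 and 7.55 (1.53 ± 0.16), and Il23a (0.15), Il19 (0.12), Lif (0.08), Clcf1 (0.25) and Il7 (-0.10) did not pass. The calls of Gsdmd and Nlrp3 were lost under median scaling.

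Tumour necrosis factor and several of its relatives rose. Of 20 ligands and receptors 8 rose and 3 fell, against 5 and 0 under median scaling, and the share of falls was near that over all genes. Tnf read 7.03, 7.33 and 6.78 without and 11.99, 11.89, 11.55 and 11.81 with LPS (4.77 ± 0.21, 27.2-fold). Cd40, the receptor for T-cell help, rose by 3.52 ± 0.26, the second TNF receptor Tnfrsf1b by 2.38 ± 0.14, the death receptor Fas by 1.53 ± 0.11 and the ligand Tnfsf9 by 0.93 ± 0.18. Tnfrsf21, Tnfrsf12a and Tnfsf13b, the B-cell activating factor BAFF, fell (-1.21, -0.80 and -0.48), and none of these falls was called under median scaling. The first TNF receptor Tnfrsf1a differed by 0.33. Among 23 colony-stimulating and growth factors and their receptors 9 rose and 6 fell (8 and 3 under median scaling). Besides Inhba, the vasoconstrictor peptide gene Edn1 (2.77 ± 0.24), the EGF-receptor ligand Hbegf (1.49 ± 0.30) and the macrophage growth factor Csf1 (1.19 ± 0.21) rose. Csf3 and Csf2, below background on all unstimulated arrays, were at least 2.1-fold and at least 1.62-fold higher (adjusted p = 0.0036 and 0.0045). Nrp1, a co-receptor for semaphorins and VEGF, fell by 2.50, and Vegfa fell by 0.94. Tgfb1 differed by 0.84 ± 0.40, with arrays from 9.09 to 10.81 under LPS and 8.64 to 9.54 without, and did not pass. The call of Vegfa was lost under median scaling.

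Chemokines, the attractants of other leukocytes, were the list with the second highest median (2.08 over 20 genes). Of these 14 rose (13 under median scaling) and Ccl6 fell by 0.75. Cxcl1 and Cxcl2, which draw neutrophils, read 6.30, 6.63 and 6.65 and 6.34, 6.67 and 6.60 without LPS, and 12.18, 13.03, 13.62 and 13.23 and 12.45, 12.36, 12.33 and 12.35 with it. Cxcl1 thus rose by 6.49 ± 0.41 and Cxcl2 by 5.84 ± 0.17, and the LPS arrays of Cxcl2 lay closer together than those of Cxcl1. Ccl5, which draws T cells and monocytes, went from 6.51, 6.53 and 6.52 to 12.91, 12.83, 12.92 and 13.17 (6.44 ± 0.13). Ccl7, a monocyte attractant, rose by 5.86 ± 0.49, Ccl2 by 5.01 ± 0.34, Ccl4 by 3.63 ± 0.18, Ccl3 by 3.50 ± 0.17 and Cxcl16, a transmembrane chemokine, by 2.97 ± 0.10. Cxcl10, an interferon-induced attractant of T cells, went from 6.02, 6.08 and 5.96 to 8.83, 8.43, 11.34 and 13.01 (4.38 ± 1.12), so that experiments 3 and 4 stood well above 1 and 2. Cxcl9, its relative, was below background on the unstimulated arrays and read 6.74, 6.94, 7.85 and 9.15 with LPS, at least 3.12-fold higher (adjusted p = 0.026). Ccl12 showed the same order of arrays (5.97, 6.17, 6.76 and 8.15) and did not pass (0.78 ± 0.38, adjusted p = 0.19). Cxcl3 and Ccl17, also below background without LPS, were at least 3.17-fold and 1.64-fold higher (adjusted p = 1.1e-04 and 8.2e-05). Ccl22 (0.07), Ccl8 (0.07), Cxcl13 (-0.07) and Cxcl14 (-0.05) did not pass. On the receptor side 3 of 12 genes rose: Fpr2, the non-signalling receptor Ccrl2 (1.44 ± 0.32) and the platelet-activating factor receptor Ptafr (0.37 ± 0.10). Cxcr4 fell by 1.32, and Cx3cr1, C5ar1, C3ar1 and Cmklr1 lay between -0.02 and 0.17 without passing. The calls of Ccl6, Cxcl9 and Ptafr were lost under median scaling.

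The promoters of Cxcl1, Cxcl2 and Cxcl10 are shown because each of these chemokines rose with LPS and each promoter holds kappaB motifs. NF-kB is known to bind these letters. The sequences are RefSeq promoters on build GRCm38.p6, 5′ to 3′ along the gene, from 220 bases before to 10 bases after the annotated start. Capitals mark exact matches to a kappaB motif, GAAANNGAA (the core of the interferon-stimulated response element), TTCNNNGAA (the gamma-activated site), TGANTCA (AP-1) or CACGTG (an E-box), on either strand. Cxcl1 lies at chr5:90891025-90891254 on the plus strand, Cxcl2 at chr5:90903679-90903908 on the plus strand and Cxcl10 at chr5:92348880-92349109 on the minus strand.
Cxcl1: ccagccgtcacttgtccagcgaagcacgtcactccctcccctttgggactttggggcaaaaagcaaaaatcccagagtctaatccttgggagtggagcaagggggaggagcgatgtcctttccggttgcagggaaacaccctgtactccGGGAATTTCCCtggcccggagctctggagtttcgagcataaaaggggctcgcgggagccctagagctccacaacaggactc
Cxcl2: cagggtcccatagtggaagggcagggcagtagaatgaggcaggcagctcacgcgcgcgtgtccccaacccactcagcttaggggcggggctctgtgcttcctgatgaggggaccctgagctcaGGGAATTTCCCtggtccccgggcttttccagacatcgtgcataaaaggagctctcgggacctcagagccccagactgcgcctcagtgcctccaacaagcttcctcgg
Cxcl10: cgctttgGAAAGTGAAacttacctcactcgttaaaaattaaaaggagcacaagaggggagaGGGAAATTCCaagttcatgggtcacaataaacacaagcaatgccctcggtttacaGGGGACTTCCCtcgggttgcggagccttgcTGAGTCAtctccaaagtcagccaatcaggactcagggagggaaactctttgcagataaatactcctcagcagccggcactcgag
Cxcl1 and Cxcl2 hold the same kappaB letters, from 71 and from 97 bases before the start, each as a pair of overlapping matches on opposite strands. Cxcl10 holds kappaB stretches from 159 and from 104 bases before its start, GAAANNGAA from 213 and TGANTCA from 74. Of the chemokine genes with 1 listed promoter, 5 of 15 (33.3%) hold a kappaB match in the 300 bases around the start, against 9.41% of the 8466 tested genes with 1 listed promoter. Such shares of lists, here and below, count all tested members, called or not.

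The receptor gene Tlr4 did not pass, while single partners rose. Of 19 genes of the LPS receptor complex and its adaptors 6 rose and 1 fell (2 and 0 under median scaling). Tlr4 read 7.99, 7.82 and 7.60 without and 7.96, 7.47, 8.14 and 7.98 with LPS, overlapping ranges (0.09 ± 0.15, adjusted p = 0.79), and the MD-2 gene Ly96 differed by -0.33. Cd14 rose by 1.88 ± 0.26, the ubiquitin ligase Traf6 by 0.75 ± 0.17, and Myd88 and the kinase gene Irak2 by 0.65 ± 0.20 and 0.50 ± 0.14, the last pair not under median scaling. Tlr2, the receptor for bacterial lipopeptides, went from 8.74, 9.06 and 8.85 to 12.35, 11.97, 12.23 and 12.18 (3.30 ± 0.13), while Tlr13, a sensor of bacterial ribosomal RNA, and Tlr8 fell (-0.90 and -0.67). Tlr9 (-0.07), Tlr3 (0.08) and Tlr1 (0.22) did not pass. Without the fatty acid array of experiment 1, median scaling called 6 LPS receptor rises. The call of Tlr13 was lost under median scaling.

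NF-kB genes rose as a group: 9 of 12 rose, none fell, and 7 rose under median scaling. Nfkbia, the inhibitor I-kappa-B alpha, went from 7.88, 8.02 and 7.87 to 10.77, 10.78, 11.33 and 10.80 (3.00 ± 0.17), and Nfkbie and Nfkbiz rose by 1.97 ± 0.12 and 1.93 ± 0.14. Of the subunits, Nfkb2 rose by 1.40 ± 0.13, Relb by 1.11 ± 0.08, Rela by 0.59 ± 0.16 and Rel by 0.47 ± 0.09. The kinase subunits Ikbkg (0.01) and Ikbkb (0.09) and the inhibitor-like Nfkbid (-0.01) did not pass. Among 28 AP-1, EGR, ATF, C/EBP and KLF factors 9 rose and 3 fell (6 and 1 under median scaling). These falls were at a share near that over all genes. The partners of Jun proteins Batf3, Batf2 and Batf rose by 2.18 ± 0.28, 1.97 ± 0.31 and 0.96 ± 0.16, Ets2 by 1.86 ± 0.20, Junb by 1.46 ± 0.28 and Cebpb, a regulator of acute-phase genes, by 1.32 ± 0.15. Jun fell, from 9.13, 9.44 and 9.33 to 7.25, 7.41, 7.78 and 7.75 (-1.75 ± 0.16), and so did Klf7 (-1.19 ± 0.20) and Egr2 (-0.92 ± 0.25). Fos (-0.11), Fosl2 (0.33), Atf3 (0.51) and Myc (-0.15) did not pass at this time. The calls of Rela, Klf7 and Egr2 were lost under median scaling.

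Inhibitors of the response rose in numbers. Of 30 feedback brakes 16 rose and 4 fell (13 and 2 under median scaling), the falls at a share near that over all genes. Socs3 and Cish, which block JAK-STAT signalling, went from 6.78, 6.84 and 6.82 to 11.42, 10.68, 11.98 and 11.38 (4.55 ± 0.32) and from 6.01, 5.94 and 6.04 to 11.28, 10.59, 9.79 and 10.11 (4.44 ± 0.33). Usp18, which removes ISG15 and dampens interferon receptor signals, rose by 4.10 ± 0.30, Traf1 by 3.30 ± 0.13, Socs2 by 2.93 ± 0.32 and Irak3, the kinase-dead IRAK-M, by 2.11 ± 0.17. Aoah, the enzyme that deacylates and so inactivates LPS, rose by 1.79 ± 0.19, and the ubiquitin-editing A20 gene Tnfaip3 by 1.57 ± 0.16. Tnfaip8l2 fell by 1.39, Socs6 fell by 0.90, Pias1 fell by 0.67 and Socs5 fell by 0.38, and Socs1 (0.29), Cyld (0.07) and Tollip (-0.29) did not pass. Of 32 MAP kinase and phosphatase genes 9 rose and 7 fell (5 and 1 under median scaling). Dual-specificity phosphatases, which switch MAP kinases off, differed in direction: Dusp4 (1.85 ± 0.23), Dusp1 (1.71 ± 0.49) and Dusp16 (1.27 ± 0.10) rose while Dusp3 (-1.37 ± 0.15) and Dusp2 (-0.94 ± 0.09) fell. The p38 substrate kinase Mapkapk2 rose by 1.81 ± 0.31. Among 23 regulators of mRNA decay 6 rose and 2 fell (4 and 0 under median scaling), and the risers included Zc3h12a, the nuclease Regnase-1 that cuts cytokine mRNAs (1.55 ± 0.13), N4bp1 (1.86 ± 0.15), Helz2 (1.95 ± 0.32) and Zfp36, the destabiliser of AU-rich mRNAs (0.86 ± 0.17). With the fatty acid array of experiment 1 left out, median scaling called 2 MAP kinase falls. The 7 MAP kinase falls became 4 without the unstimulated array of experiment 3. The calls of Pias1, Socs5, Dusp1, Dusp3 and Zfp36 were lost under median scaling.

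Antiviral genes induced by interferon formed the largest group of risers. Of 42 tested 34 rose and Ifitm6 fell by 2.02, with a median of 2.05. Ifit3, an effector against viral RNA, read 6.39, 6.59 and 6.81 without and 12.58, 12.25, 12.98 and 13.21 with LPS (6.16 ± 0.46). Isg15, a ubiquitin-like modifier, went from 6.49, 6.52 and 6.90 to 11.64, 12.15, 12.24 and 13.42 (5.73 ± 0.38), and the array of experiment 4 stood above the others. Rsad2 (viperin) rose by 5.15 ± 0.48, Slfn1 by 4.68 ± 0.77, Usp18 by 4.10 ± 0.30 and Ifit2 by 3.72 ± 0.56. Members with smaller rises included the RNA-editing enzyme Adar (1.56 ± 0.23) and the dynamin-like Mx1 (1.27 ± 0.23). Isg20, a nuclease below background without LPS, was at least 3.83-fold higher (adjusted p = 0.0031). Ifit1 (-0.08), Xaf1 (0.04), Parp9 (0.24), Ifitm2 (0.31), Slfn4 (0.34), Tor3a (0.74) and Trafd1 (0.84) did not pass. Guanylate-binding and immunity-related GTPases, which attack vacuoles of intracellular microbes, rose in 9 of 13 and had the highest median of all 50 lists, 2.24. Gbp2 went from 8.70, 8.52 and 9.20 to 13.38, 13.16, 13.40 and 13.76 (4.62 ± 0.21), Gbp3 rose by 4.57 ± 0.29, Igtp by 3.27 ± 0.41 and Irgm2 by 2.75 ± 0.39, whereas Iigp1 (0.00), Gbp9 (0.01), Gbp4 (0.13) and Tgtp1 (0.30) did not pass. Probes of such families can bind more than 1 near-identical copy, so single members are uncertain.

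Sensors of nucleic acids and the factors behind the interferon response rose as well. Among 14 cytosolic sensors 10 rose and none fell. Ifi205, a DNA-binding PYHIN protein, was below background without LPS and at least 24.3-fold higher with it (adjusted p = 3.1e-07). The Z-nucleic acid sensor Zbp1 rose by 3.27 ± 0.18, the RNA helicase Dhx58 by 2.82 ± 0.21, the kinase PKR (Eif2ak2) by 2.31 ± 0.30 and the DNA sensor Cgas by 1.23 ± 0.23. Aim2 (0.02), Sting1 (0.12), Mavs (-0.10) and Nod2 (0.24) did not pass. Of 17 interferon regulatory factors, STATs and JAK kinases 6 rose and 1 fell (5 and 0 under median scaling). Irf7, the amplifier of type I interferon, went from 6.18, 6.55 and 6.45 to 10.79, 10.36, 10.69 and 10.92 (4.30 ± 0.32), and Jak2, Stat2, Irf1 and Irf9 rose by 2.36 ± 0.09, 1.87 ± 0.43, 1.47 ± 0.37 and 1.19 ± 0.12. Irf8 fell by 0.69 (not under median scaling), and Irf3 (-0.17), Irf5 (0.11), Stat3 (0.40) and Jak1 (0.08) did not pass. The call of Irf1 was lost under median scaling.

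The promoters of Ifit3 (chr19:34583309-34583538, plus strand), Isg15 (chr4:156200809-156201038, minus strand) and Gbp2 (chr3:142620443-142620672, plus strand) are shown for the letters these interferon-induced genes share. The build, the stretch and the capitals are as for the chemokines.
Ifit3: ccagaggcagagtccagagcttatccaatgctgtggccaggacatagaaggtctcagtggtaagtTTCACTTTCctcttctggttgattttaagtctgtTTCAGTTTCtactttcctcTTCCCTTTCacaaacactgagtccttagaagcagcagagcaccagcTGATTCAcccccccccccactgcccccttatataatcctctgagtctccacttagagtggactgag
Isg15: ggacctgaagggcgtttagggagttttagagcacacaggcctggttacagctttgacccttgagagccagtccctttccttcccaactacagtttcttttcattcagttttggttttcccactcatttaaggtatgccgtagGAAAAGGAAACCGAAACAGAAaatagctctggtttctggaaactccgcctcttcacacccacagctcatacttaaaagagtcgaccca
Gbp2: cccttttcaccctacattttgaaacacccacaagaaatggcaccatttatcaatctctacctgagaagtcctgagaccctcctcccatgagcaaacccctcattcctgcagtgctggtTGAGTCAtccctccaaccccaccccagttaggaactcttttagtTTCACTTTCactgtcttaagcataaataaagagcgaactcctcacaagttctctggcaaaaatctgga
Ifit3 holds GAAANNGAA at 3 places, from 155, 121 and 102 bases before the start, all on the minus strand. Isg15 holds 3 overlapping matches from 78, 72 and 66 bases before the start, and Gbp2 holds 1 from 58. Among antiviral genes with 1 listed promoter 11 of 27 (40.7%) hold this motif, and among the GTPases 7 of 7, against 7.45% of all tested genes with 1 listed promoter.

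The size of the interferon response differed between the LPS arrays. For each of the 34 antiviral genes that rose, the value was set against its unstimulated mean. The median of these differences was 2.16 on the LPS array of experiment 1, 2.02 on that of experiment 2, 2.36 on that of experiment 3 and 2.87 on that of experiment 4. The array of experiment 4 was the highest for 27 of the 34 genes and that of experiment 2 the lowest for 23. For the 9 GTPases that rose the medians were 2.26, 2.08, 2.51 and 2.74, with experiment 4 highest in all 9. Over all 1164 raised genes the medians were 0.72, 0.64, 0.71 and 0.76. The array of experiment 4 was the highest for 435 of them and that of experiment 2 the lowest for 369. The antiviral genes had a median SD of 0.42 among the LPS arrays and 0.13 among the unstimulated arrays, against 0.22 and 0.105 over all raised genes. Some other lists spread as much, with a median SD among the LPS arrays of 0.47 for the raised coagulation genes and 0.45 for the raised arginine genes. For the raised chemokines it was 0.39 and for the raised GTPases 0.31. Fatty acid-loaded cells of the same experiments gave 1.60, 1.16, 2.03 and 2.49 for the antiviral genes after LPS, that is the same order of experiments. Their LPS-treated arrays were other ones, but the genes and the unstimulated means they were set against were the same. The arrays of experiments 2 and 4 lay on the same slide, and experiment 2 has no unstimulated array, so that its own baseline is not known. One slide held both arrays of experiment 1, and another held the LPS array of experiment 3 with the unstimulated arrays of experiments 3 and 4. Within these slides the list medians were 2.04 and 1.88 for the antiviral genes, 1.91 and 2.30 for the GTPases, 2.55 and 2.21 for the chemokines and -0.52 and -0.51 for the lysosomal hydrolases described below.

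**Figure D2:**
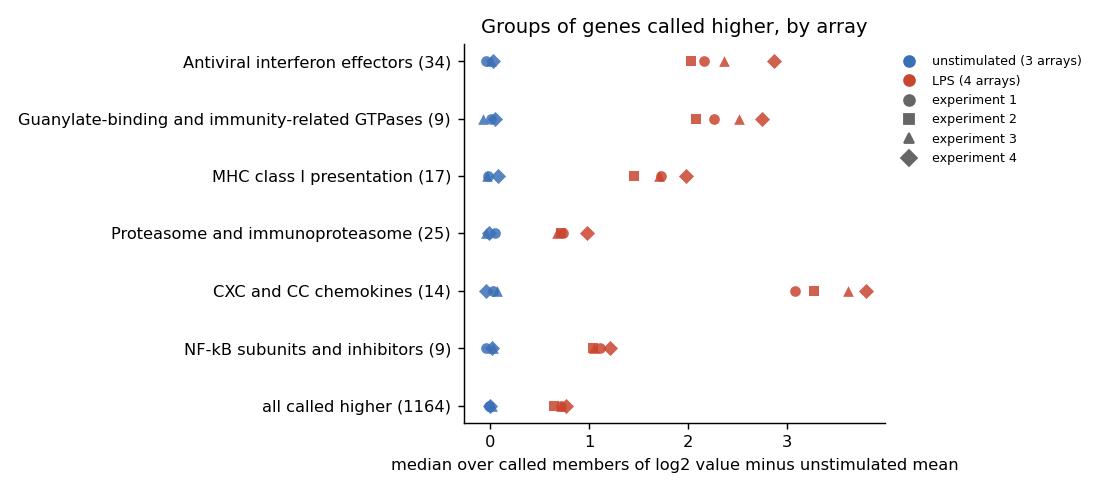
For 6 gene groups and for all raised genes, the median over the called-higher members (number in brackets) of the log2 value minus its unstimulated mean, on each array; colour gives the group and the symbol the experiment. Unstimulated arrays lie near 0. Antiviral genes reach from 2.02 to 2.87 over the LPS arrays, whereas the medians of all raised genes reach from 0.64 to 0.76.

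Genes of MHC class I antigen presentation, which displays cytosolic peptides to T cells, rose as a group. Of 33 proteasome genes 25 rose and none fell, and 5 rose under median scaling. The inducible catalytic subunits led: Psmb8 went from 10.33, 10.63 and 10.73 to 12.69, 12.63, 12.56 and 12.82 (2.11 ± 0.15), Psmb10 rose by 1.93 ± 0.22 and Psmb9 by 1.64 ± 0.34, followed by the activator subunit Psme1 (1.57 ± 0.19). The constitutive catalytic subunits Psmb5 and Psmb7 rose by 1.04 ± 0.19 and 1.00 ± 0.18 (not under median scaling), and Psmb6 (0.41) did not pass. Among 21 genes of class I presentation 17 rose and none fell. The peptide transporter genes Tap1 and Tap2 rose by 2.61 ± 0.28 and 2.01 ± 0.43, the loading factors Tapbp and Tapbpl by 1.75 ± 0.28 and 1.77 ± 0.19, and Nlrc5, the transactivator of class I genes, by 2.17 ± 0.36. H2-M2, low without LPS (6.79, 6.48 and 6.64), lay between 12.60 and 13.33 with it. H2-Q6 rose by 3.48 ± 0.24, H2-Q7 by 1.85 ± 0.16, H2-K1 by 1.43 ± 0.31 and H2-D1 by 0.42 ± 0.07, with the same limit on near-identical copies. The light chain B2m read 13.90, 13.85 and 13.91 without and 14.10, 14.01, 14.17 and 14.03 with LPS and did not pass (0.19 ± 0.09, adjusted p = 0.17). In class II presentation and costimulation 7 of 25 rose and 3 fell (6 and 1 under median scaling), the falls at a share near that over all genes: the costimulator Cd86 rose by 2.84 ± 0.62, the checkpoint ligand Cd274 (PD-L1) by 2.36 ± 0.26 and H2-Ab1 by 1.62 ± 0.31, while H2-Aa (-0.09), Cd74 (0.07) and Ciita (0.05) did not pass. Median scaling without the fatty acid array of experiment 1 called 18 proteasome rises. The call of H2-D1 was lost under median scaling.

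H2-Q7 (chr17:35438935-35439164, plus strand) is shown as a class I promoter with a kappaB match, from 133 bases before the start, with the capitals as above.
H2-Q7: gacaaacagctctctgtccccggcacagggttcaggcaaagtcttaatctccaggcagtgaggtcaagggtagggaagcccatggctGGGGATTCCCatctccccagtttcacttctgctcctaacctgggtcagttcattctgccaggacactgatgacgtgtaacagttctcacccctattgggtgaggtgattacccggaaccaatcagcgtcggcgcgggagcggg
Of the class I presentation genes with 1 listed promoter 8 of 14 (57.1%) hold a kappaB match and 4 (28.6%) hold GAAANNGAA.

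Secreted proteases, their inhibitors and acute-phase proteins included some of the larger changes. Of 19 metalloproteinase and TIMP genes 5 rose and 3 fell (4 and 1 under median scaling). These falls were at a share near that over all genes. The collagenase Mmp13 went from 8.13, 8.15 and 8.21 to 11.74, 11.59, 12.91 and 12.29 (3.97 ± 0.35) and the membrane protease Mmp14 from 8.31, 8.88 and 8.02 to 11.61, 11.93, 12.41 and 11.62 (3.49 ± 0.23). Of the inhibitors Timp1 rose by 3.07 ± 0.26 while Timp2 fell by 3.40, so the pair moved in opposite directions. Mmp9 rose by 0.81 ± 0.27, Mmp12 fell by 0.75, and Mmp8 (0.02), Mmp19 (0.03), Adam17 (-0.07) and Timp3 (0.15) did not pass. Among 22 genes of coagulation, fibrinolysis and the acute phase 10 rose and 3 fell, the falls at a share near that over all genes. Besides Serpinb2 and Lcn2, the antiprotease Slpi rose by 3.03 ± 0.24, haptoglobin (Hp) by 2.77 ± 0.72, coagulation factor X (F10) by 1.43 ± 0.15 and the urokinase receptor Plaur by 1.32 ± 0.18. The pentraxin Ptx3, below background without LPS, was at least 3.65-fold higher (adjusted p = 2.7e-08). The anti-inflammatory annexin Anxa1 fell by 1.77, and tissue factor F3 (0.14), Plau (0.23) and Thbs1 (0.88) did not pass. Of 16 complement genes Cfb, a factor of the alternative pathway, rose by 3.07 ± 0.20 and 6 fell, 1 of them under median scaling: C1qb fell by 1.65, C1qc fell by 1.54 and the complement receptor Vsig4 fell by 1.34. C2 (0.85 ± 0.34) and C4b (-1.05 ± 0.40) did not pass. Without the fatty acid array of experiment 1, median scaling called 3 complement falls. The calls of Mmp12, C1qb and C1qc were lost under median scaling.

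More receptors for dying cells and for sugars fell than rose. Of 23 scavenger, mannose and efferocytosis genes 3 rose and 9 fell (2 and 5 under median scaling). The mannose receptor Mrc1 went from 10.14, 9.94 and 9.83 to 7.33, 7.20, 6.85 and 7.03 (-2.86 ± 0.18), and Mfge8, a bridge to phosphatidylserine on apoptotic cells, from 13.94, 14.01 and 14.03 to 11.48, 12.23, 11.96 and 11.80 (-2.12 ± 0.14). The TAM receptors, which engulf apoptotic cells, parted: Axl went from 8.42, 8.61 and 8.66 to 11.85, 11.54, 11.70 and 12.65 (3.38 ± 0.36) while Mertk fell by 0.85, a fall not called under median scaling. Both ligands of these receptors fell, Gas6 from 8.48, 8.77 and 8.60 to 6.79, 6.70, 6.52 and 6.83 (-1.91 ± 0.12) and Pros1 from 9.04, 9.44 and 9.19 to 7.37, 7.42, 6.89 and 7.54 (-1.92 ± 0.16). A second, dimmer probe of Axl differed by 0.16. Itgb5, an integrin subunit, fell by 1.45 and the lipid scavenger Cd36 fell by 1.02. Msr1 rose by 0.90 ± 0.20, and Marco (0.42), Cd163 (-0.14) and Timd4 (0.21) did not pass. The call of Msr1 was lost under median scaling.

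Paired and inhibitory immune receptors changed in both directions, 8 of 29 rising and 11 falling (4 and 7 under median scaling). The C-type lectin Clec4e (Mincle), a sensor of mycobacterial glycolipid, went from 8.23, 8.67 and 7.78 to 12.63, 12.98, 12.74 and 12.74 (4.55 ± 0.24), Clec4n (dectin-2) rose by 1.59 ± 0.36 and the paired receptors Pilrb1 and Pilra by 3.45 ± 0.20 and 2.27 ± 0.23. Trem2, a lipid receptor of macrophages, went from 12.07, 12.13 and 12.07 to 9.43, 9.51, 8.81 and 9.71 (-2.73 ± 0.17). Cd300ld fell by 2.03, Vsir (VISTA) fell by 1.72 and the collagen receptor Lair1 fell by 0.90. The sialic acid receptor Siglec1 (1.23 ± 0.56) and Trem1 (0.06) did not pass. Of 17 Fc receptor and signalling genes 4 rose and 6 fell, with 0 and 1 under median scaling. The high-affinity receptor Fcgr1 rose by 1.06 ± 0.35, the adaptor Lat2 fell by 1.76, and the adaptor Tyrobp, the partner of Trem2, fell by 1.69. Among 32 integrins, adhesion receptors and tetraspanins 4 rose and 10 fell (3 and 2 under median scaling). Icam1 rose by 2.71 ± 0.22 and Adgre1 (F4/80) by 1.81 ± 0.16, while Cd93 and Adgre5 fell and Itgam (-0.02), Itgb1 (0.02) and Cd44 (-0.39) did not pass. With the fatty acid array of experiment 1 left out, median scaling called 2 Fc receptor falls and 4 integrin and adhesion falls. The calls of Fcgr1 and Tyrobp were lost under median scaling.

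Receptors for cytokines and small ligands rose in some cases and fell in others. Of 22 cytokine receptors 7 rose and 7 fell, 2 and 2 under median scaling. The TGF-beta receptors Tgfbr2 and Tgfbr1 fell (-1.86 and -0.87), the interleukin-6 receptor Il6ra fell by 1.03 and the interferon-gamma receptor Ifngr1 fell by 0.93. Csf2rb, the shared chain of the GM-CSF receptor, rose by 1.94 ± 0.55. The metabolite-sensing receptors Gpr84 and Hcar2, for medium-chain fatty acids and for hydroxybutyrate, rose by 3.84 ± 0.34 and 3.47 ± 0.24. P2ry1, a nucleotide receptor, fell by 1.40 and Lpar6 fell by 1.29, while 26 of the 36 G protein-coupled receptor and regulator genes did not pass (3 rose and 2 fell under median scaling), among them P2rx7 (0.31) and P2ry6 (-0.41). In that list 5 rose and 5 fell, the falls at a share near that over all genes, and its median was 0.008. The 7 cytokine receptor rises became 4 without the unstimulated array of experiment 3 and 2 without the unstimulated array of experiment 4. The 5 G protein-coupled receptor rises became 3 without the unstimulated array of experiment 1, 3 without the unstimulated array of experiment 3 and 2 without the LPS array of experiment 3. The calls of Tgfbr1, Ifngr1 and Csf2rb were lost under median scaling.

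Lysosomal genes fell as a group. Of 50 cathepsins, glycosidases and other hydrolases 30 fell and 2 rose, the lowest median of the 50 lists under quantile normalization (-0.51). Under median scaling 8 fell and 0 rose, and the median was -0.26. Complement genes (-0.33) and prostaglandin and leukotriene genes (-0.32) then had lower medians. Lipa, which splits cholesteryl esters and triglyceride in lysosomes, went from 11.68, 11.19 and 10.65 to 9.97, 8.80, 8.11 and 8.66 (-2.29 ± 0.43). The differences within experiments 1, 3 and 4 were -1.71, -3.08 and -1.99, all in 1 direction. Gm2a, the ganglioside activator, fell by 1.96, the phospholipase Pla2g15 fell by 1.85, the asparaginyl protease Lgmn fell by 1.73 and the mannosidase Man2b1 fell by 1.70. The acid phosphatases Acp5 and Acp2 rose by 0.73 ± 0.16 and 0.54 ± 0.17, and Ctsz (0.64 ± 0.22), Ctsb (-0.27), Ctss (-0.45) and Gaa (0.11) did not pass. Among 39 genes of the proton pump and the lysosomal membrane 20 fell and 6 rose (3 and 2 under median scaling). The calcium channel genes Tpcn1 and Tpcn2 fell (-1.52 and -1.41), the pump subunits Atp6v1c1, Atp6v0d1 and Atp6v1a fell (-1.28, -0.92 and -0.89), and the membrane glycoprotein Lamp1 went from 13.56, 13.71 and 13.71 to 12.47, 12.85, 13.02 and 12.78 (-0.88 ± 0.12). The peptide transporter Slc15a3 rose by 1.47 ± 0.12 and the channel gene Mcoln2 by 1.00 ± 0.12, in contrast to Mcoln3, which fell by 1.25. Of 32 autophagy genes 2 rose, with the cargo receptor Sqstm1 at 1.30 ± 0.10, and 7 fell (1 and 1 under median scaling), with the mitophagy receptor Bnip3l at -1.54 ± 0.15, while Becn1 (-0.11), Map1lc3b (-0.34) and Ulk1 (-0.23) did not pass. Median scaling without the fatty acid array of experiment 1 called 18 hydrolase falls, 4 proton pump and membrane rises and 8 proton pump and membrane falls. The 7 autophagy falls became 4 without the unstimulated array of experiment 4. The calls of Lipa, Acp5, Acp2, Tpcn2, Atp6v1c1, Atp6v0d1, Atp6v1a, Lamp1 and Mcoln3 were lost under median scaling.

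The Lamp1 promoter (chr8:13158941-13159170, plus strand) is shown because CACGTG, which TFEB-family factors are known to bind in lysosomal genes, recurs there, with the capitals as above.
Lamp1: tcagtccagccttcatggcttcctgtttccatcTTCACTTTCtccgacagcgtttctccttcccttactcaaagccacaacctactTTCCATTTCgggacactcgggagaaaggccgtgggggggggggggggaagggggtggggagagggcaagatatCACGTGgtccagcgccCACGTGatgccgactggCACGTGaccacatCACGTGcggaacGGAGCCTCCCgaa
Lamp1 holds CACGTG from 61, 45, 28 and 15 bases before the start. It also holds GAAANNGAA from 187 and 134 bases before the start and a kappaB match from 3, all on the minus strand. Among hydrolase genes with 1 listed promoter 11 of 36 (30.6%) hold CACGTG, and among proton pump and membrane genes 10 of 27 (37.0%), against 9.52% of all tested genes with 1 listed promoter and 13.1% of those that fell. The transcripts of the factors themselves, Tfeb (-0.20), Tfe3 (0.06) and Mitf (0.10), did not pass the test.

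**Figure D3:**
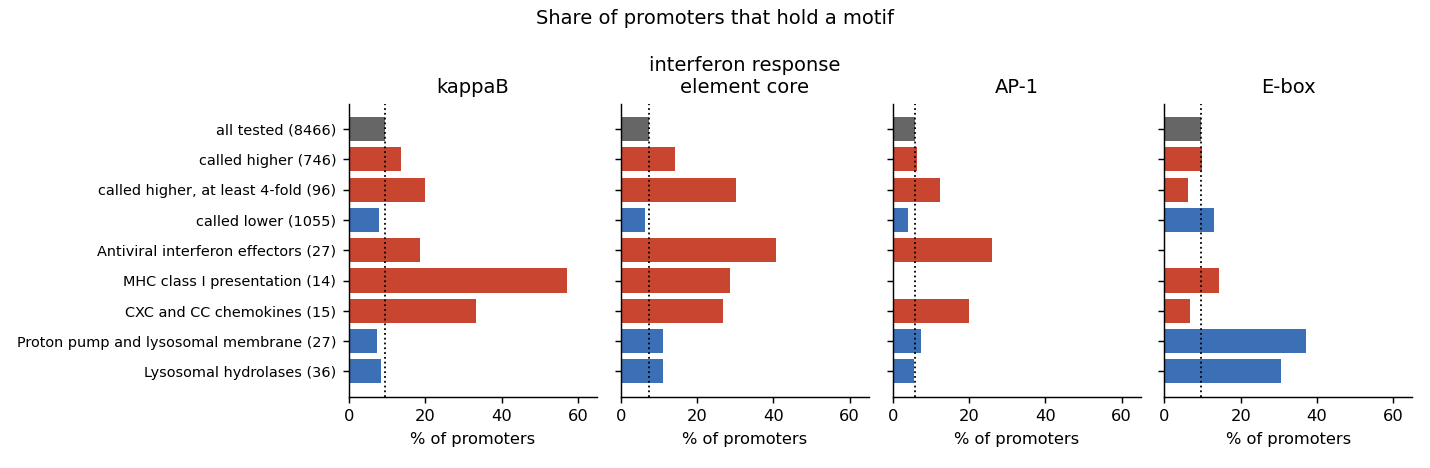
Share of promoters (300 bases, genes with 1 listed promoter, number in brackets) that hold a kappaB motif, GAAANNGAA, TGANTCA or CACGTG on either strand. All tested genes are grey (dotted line), genes called higher red and genes called lower blue. Lists hold all their tested members, called or not, in red where more members rose and in blue where more fell. The GAAANNGAA share reaches 30.2% among genes raised at least 4-fold and 40.7% among antiviral genes, against 7.45% of all tested genes.

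The shares were also counted over all called genes. Among 96 genes raised at least 4-fold with 1 listed promoter, 19.8% held a kappaB match, 30.2% GAAANNGAA, 19.8% TTCNNNGAA and 12.5% TGANTCA, against 9.41%, 7.45%, 7.19% and 5.97% of all tested genes. Among the 650 genes raised by less the shares were 12.8%, 11.8%, 8.15% and 5.54%. In the 1055 lowered genes they were 7.96%, 6.35%, 5.69% and 4.08%. A match describes letters in a window and is neither a binding site nor a cause.

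Prostaglandin, arginine and nucleotide enzymes held single strong risers. Of 13 prostaglandin and leukotriene genes 3 rose and 6 fell (2 and 2 under median scaling). Ptges, the inducible prostaglandin E synthase, went from 6.14, 6.27 and 6.07 to 10.03, 9.84, 10.64 and 10.34 (4.05 ± 0.26), and the cyclooxygenase Ptgs2 rose by 0.70 ± 0.17. The synthases of prostaglandin D and of prostacyclin, Hpgds and Ptgis, fell (-1.96 and -1.68), and the leukotriene factor Alox5ap fell by 1.90. Among 19 genes of arginine, nitric oxide and polyamine metabolism 8 rose and 3 fell (7 and 0 under median scaling). These falls were at a share near that over all genes. The arginine importer Slc7a2 went from 6.94, 6.93 and 7.14 to 12.85, 11.71, 11.97 and 11.75 (5.07 ± 0.27), Ass1, which rebuilds arginine from citrulline, rose by 2.65 ± 0.33, the cystine importer Slc7a11 by 2.09 ± 0.28 and Gch1, the first enzyme of the synthase cofactor tetrahydrobiopterin, by 1.81 ± 0.21. The inducible nitric oxide synthase Nos2 read 6.00, 6.08 and 5.95 without and 6.67, 6.02, 6.66 and 7.57 with LPS, with the array of experiment 2 inside the unstimulated range, and did not pass (0.72 ± 0.25, adjusted p = 0.057). Arg1 (1.24 ± 0.59) did not pass either, while Arg2, below background without LPS, was at least 2.74-fold higher (adjusted p = 8.6e-05). In nucleotide and NAD metabolism 8 of 38 rose and 5 fell (8 and 1 under median scaling), the falls at a share near that over all genes. Uridine phosphorylase Upp1 went from 6.19, 6.08 and 6.23 to 10.05, 10.41, 11.45 and 11.21 (4.62 ± 0.35) and Cmpk2 rose by 3.20 ± 0.48, whereas adenosine kinase Adk fell by 1.69, and Nampt (0.33) and Ido1 (0.22) did not pass. Without the fatty acid array of experiment 1, median scaling called 2 nucleotide falls and 5 prostaglandin falls. The 6 prostaglandin falls became 3 without the LPS array of experiment 4 and 3 without the unstimulated array of experiment 3. The call of Alox5ap was lost under median scaling.

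Among metal and redox genes both rises and falls were called. Of 33 metal-handling genes 7 rose and 6 fell, 4 and 1 under median scaling. The mitochondrial iron importer Slc25a37 rose by 2.03 ± 0.14 and the copper transporter Slc31a2 by 1.62 ± 0.19. The haem exporter Flvcr1 fell by 0.85, and the iron exporter Slc40a1 (-0.21), Fth1 (0.09) and Hmox1 (0.66 ± 0.30) did not pass. Among 38 glutathione and redox genes 10 rose and 7 fell (5 and 2 under median scaling). Mitochondrial superoxide dismutase Sod2 went from 9.84, 10.06 and 9.89 to 12.70, 12.89, 12.70 and 12.81 (2.84 ± 0.13) and glutathione peroxidase Gpx1 from 13.67, 13.97 and 13.85 to 11.78, 12.14, 12.36 and 11.53 (-1.88 ± 0.26). Cybb, the catalytic subunit of the phagocyte oxidase, rose by 0.69 ± 0.14, its partner Ncf1 fell by 0.74, and Cyba (-0.09) and Cat (0.01) did not pass. With the fatty acid array of experiment 1 left out, median scaling called 9 redox rises, 4 redox falls and 2 metal falls. The calls of Flvcr1 and Ncf1 were lost under median scaling.

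Among genes of the cell cycle, cell death and the Golgi both rises and falls were called. Of 36 cyclins, kinase inhibitors and proliferation genes 7 rose and 10 fell (4 and 4 under median scaling). Besides Cdkn1c, the stress-induced Sesn1 fell from 9.45, 9.76 and 9.75 to 7.04, 7.09, 7.28 and 7.11 (-2.52 ± 0.10), while Cdkn1a (p21) rose by 1.12 ± 0.19 and the p53 antagonist Mdm2 by 1.47 ± 0.13. Replication and division genes such as Top2a (-0.13), Cdk1 (-0.03), Pcna (-0.11) and Mcm5 (0.12) did not pass. Among 31 death genes 12 rose and 8 fell, 4 and 2 under median scaling. The necroptosis effector Mlkl rose by 3.10 ± 0.30 and the survival gene Bcl2a1d by 1.29 ± 0.22, and the pro-apoptotic Bbc3 (PUMA) and the survival gene Bcl2 fell (-1.17 and -0.94). Golgi glycosyltransferases fell in 15 and rose in 5 of 50 (4 and 1 under median scaling), the rises at a share near that over all genes. The falls were led by St6gal1, which went from 10.26, 10.32 and 10.39 to 7.29, 7.27, 7.12 and 7.39, and Man2a2 (-2.13 ± 0.12). Median scaling without the fatty acid array of experiment 1 called 8 death rises, 4 death falls, 7 cell-cycle falls and 5 glycosyltransferase rises. The 12 death rises became 6 without the LPS array of experiment 4 and 7 without the unstimulated array of experiment 4.

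The calls of several lists rested largely on the scaling. Cytosolic ribosomal proteins fell in 14 of 32 and rose in none, from -0.35 ± 0.10 (Rps6) to -0.91 ± 0.11 (Rpl22). Under median scaling 0 fell and the list median went from -0.34 to -0.05. Of 37 mitochondrial ribosome and import genes 8 rose, all by under 0.75, and 0 did under median scaling. Of 39 DNA repair genes 1 rose and 5 fell (0 and 1 under median scaling), and of 31 chromatin enzymes 1 rose and 5 fell (1 and 1 under median scaling), with medians of 0.02 and -0.05. The falls of both lists were at shares near that over all genes. The histone demethylase Kdm6b rose by 0.61 ± 0.15 and Hdac5 fell by 1.18. Among macrophage identity factors none of 17 rose and 4 fell (1 under median scaling). Of these, the peritoneal factor Gata6 fell by 0.66 and the oxysterol receptor Nr1h3 fell by 1.13, while Spi1 (PU.1, -0.13) did not pass. Of 14 genes often used as references 3 rose and 3 fell (1 and 0 under median scaling). Gapdh rose by 0.62 ± 0.17 and Actb fell by 0.72, neither under median scaling, and Tbp (-0.14), Ppia (-0.07) and Hprt (-0.37) did not pass. Without the fatty acid array of experiment 1, median scaling called 3 chromatin falls, 1 ribosomal protein fall and 5 mitochondrial rises. The 14 ribosomal protein falls became 9 without the unstimulated array of experiment 1. The 5 DNA repair falls became 1 without the unstimulated array of experiment 1, 3 without the LPS array of experiment 1, 3 without the LPS array of experiment 4, 3 without the unstimulated array of experiment 3 and 3 without the LPS array of experiment 3. The calls of Rps6, Rpl22, Hdac5 and Nr1h3 were lost under median scaling.

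**Figure D4:**
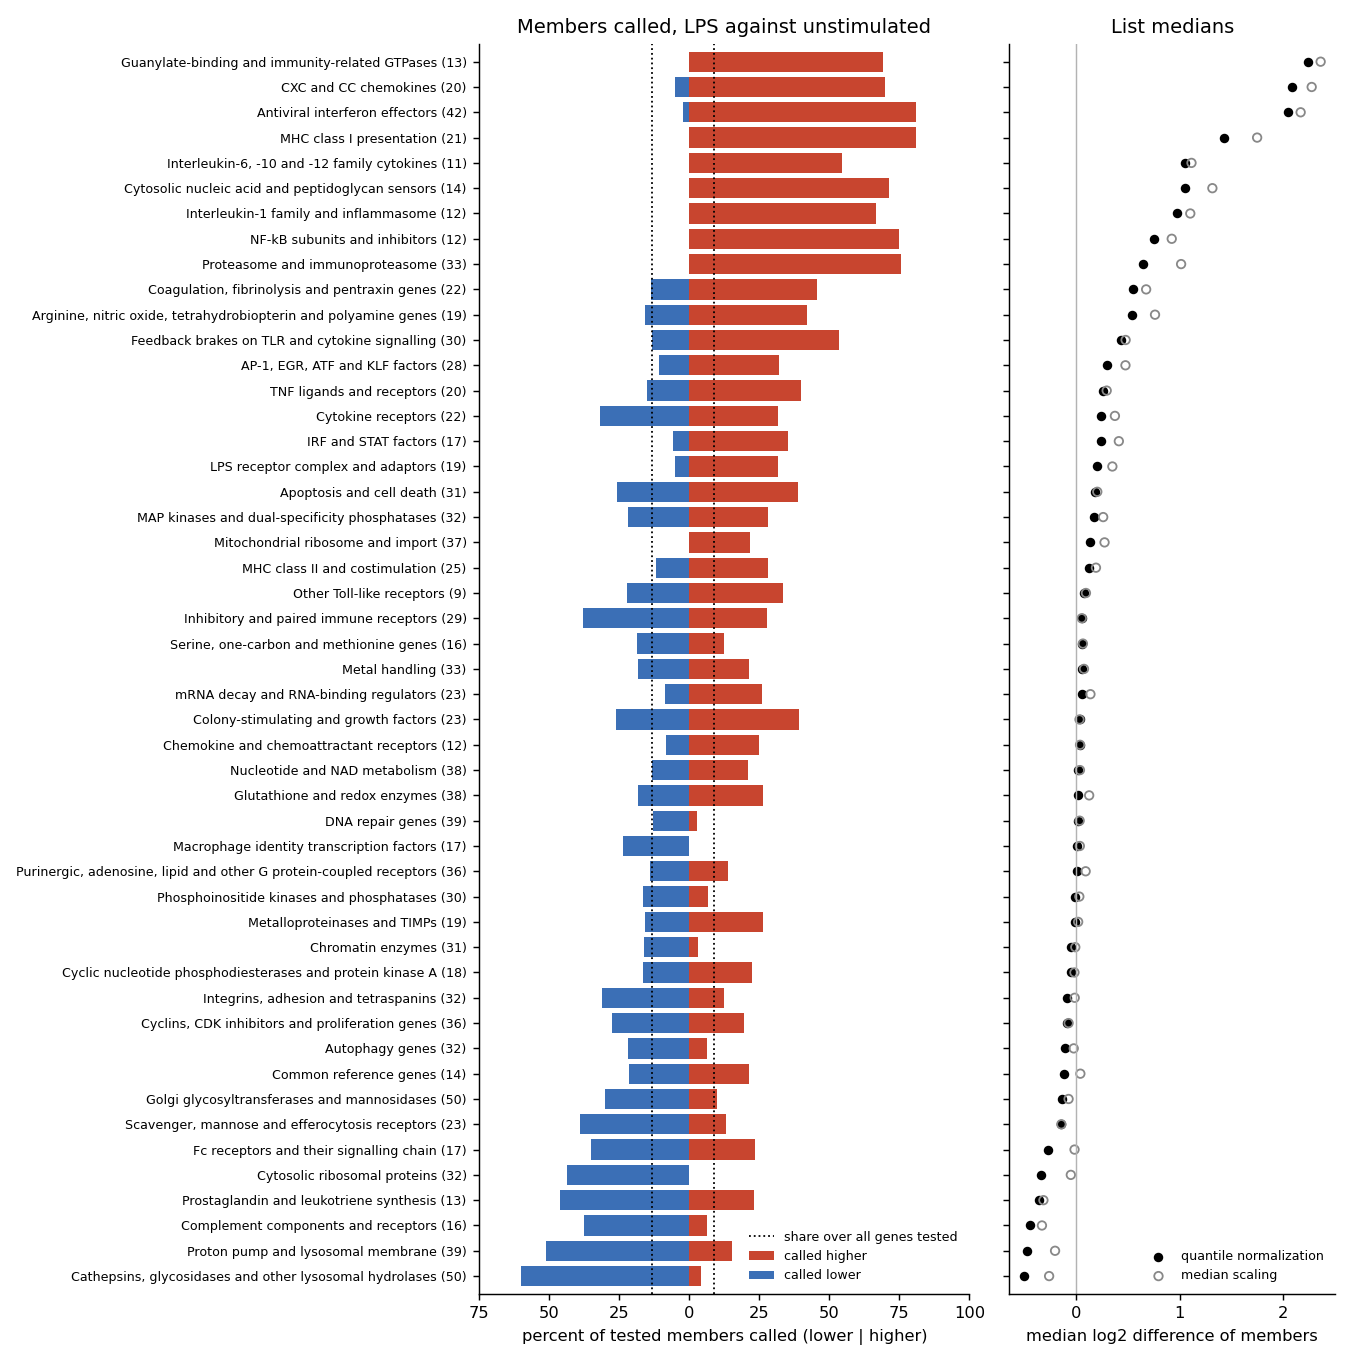
Left: percent of the tested members of 49 gene lists (number tested in brackets) called higher (red, to the right) or lower (blue, to the left) in the LPS group, with dotted lines at the shares over all tested genes, 8.96% and 13.3%. Right: median log2 difference of each list under quantile normalization (filled) and median scaling (open). The 4 highest medians belong to the GTPases, chemokines, antiviral genes and class I presentation, and the lowest under quantile normalization to the hydrolases.

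Whether the response differed in cells loaded with fatty acid was tested as the LPS effect with fatty acid minus that without it, in the same fit. The fatty acid array of experiment 1, which stood apart, is part of this comparison, which was not fitted without it. Only 6 of 12984 genes (0.0462%) passed, against 632 at an unadjusted limma p below 0.05. Chance alone would be expected to give about as many as these 632 at that threshold. Under the replicate block by experiment 20 passed, and under median scaling none did. Scd1, the stearoyl-CoA desaturase, fell with LPS alone from 8.52, 8.54 and 8.47 to 6.59, 6.97, 6.65 and 6.37, a difference of -1.86 ± 0.14, and differed by -0.04 in loaded cells, whose mean level without LPS was 6.63 (interaction 1.82 ± 0.19, adjusted p = 0.00173). The water and glycerol channel Aqp9 rose by 2.55 ± 0.15 without and 1.03 with fatty acid (adjusted p = 0.0197), and the fitted rise of Ptx3 was 1.99 ± 0.12 without and 0.89 with it (0.0436). The NAD-consuming surface enzyme Bst1 rose less without (0.74 ± 0.11) than with fatty acid (1.67, adjusted p = 0.0436), as did the betaine transporter Slc6a12 (1.63 ± 0.15 against 2.85, 0.0498). The peroxisomal enzyme Hsd17b4 fell by 1.46 without and by 0.83 with fatty acid (0.0436). The groups of arrays did not overlap between LPS alone and unstimulated cells for any of these 6 genes. The call of Hsd17b4 for LPS alone against unstimulated cells was also lost under median scaling.

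**Figure D5:**
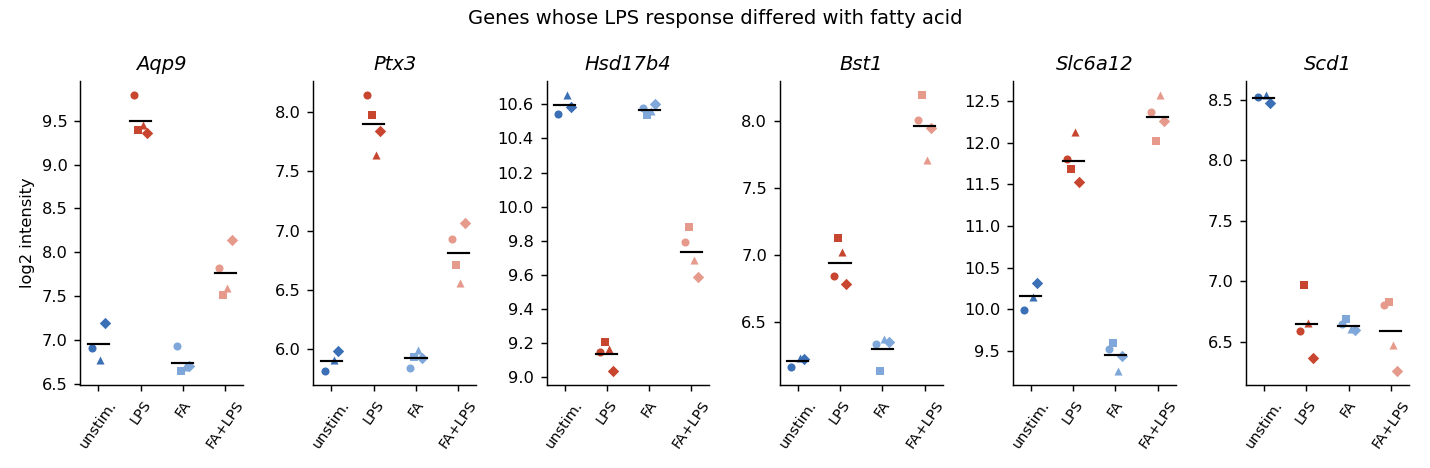
Log2 intensity on each array of the 6 genes whose LPS response differed between cells with and without fatty acid, in the 4 groups (3 unstimulated arrays, 4 in each other group); bars are group means and symbols give the experiment. Scd1 is high only on the unstimulated arrays, and Aqp9 and Ptx3 are highest with LPS alone.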

How the data were processed

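RNA was measured on one-colour Illumina mouse bead arrays, whose number limits the precision. The authors deposited non-normalized log2 signals of 45281 probes and a value table of 25784 probes. The table's log2 values equal a quantile normalization of the deposited signals to within 0.000949, with a median of 6.03 in every column, so its scale is log2 and it is neither centred nor a ratio. For the scanner software, its background treatment and the rule by which the authors kept probes, the entry is: not given in the sources used here. Detection p-values were not used.

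The deposited signals were taken to the linear scale, corrected with normexp (offset 50), returned to log2 and quantile normalized over all probes. A probe counted as above background where it exceeded the 95th percentile of the 19497 probes the authors did not keep, on that array. Kept probes above background on at least 3 arrays were tested (24195, of which 20279 carry a symbol). Of the kept probes 21476 had 1 gene symbol, 10 several and 4298 none in the platform annotation. The brightest probe stood for a gene, which mattered for 4827 genes. Where all arrays of a group lay below background, the fold was computed against the lowest signal above background and is given as "at least". limma 3.58.1 in R 4.3.3 was fitted over all 15 arrays with 1 mean per group (11 residual and 3.20 prior degrees of freedom), with 2-sided tests and Benjamini-Hochberg adjustment over 12984 genes. The script was tested on simulated data. The labels call the experiments independent. The p-values measure the spread between the arrays of a group, with arrays of the same experiment counted as separate.

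The submitters' descriptions number the experiments, so the arrays are paired by number. Deviations from the group means correlated between LPS and unstimulated arrays at 0.209 in experiment 1, 0.0438 in experiment 3 and 0.0574 in experiment 4. Between the LPS arrays without and with fatty acid they correlated at 0.805, 0.699, 0.560 and 0.708 in experiments 1 to 4. Between LPS arrays and fatty acid arrays without LPS the values were 0.220, 0.222, 0.315 and 0.385. The main fit holds no term for experiment, so its p-values do not take these correlations into account. Other fits took the replicate block by experiment, the slide as a block, median scaling, the authors' table, other background and filter settings, and left out each array.

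The gene lists and members were chosen with earlier results of these data known. Named were the 12 largest rises and the 12 largest falls without overlap between groups, up to 6 called members of each list in each direction, members that did not pass, cell type markers and up to 5 interaction genes in each direction. Outside that rule, and after their values were seen, Adar, Aoah, Atp6v0d1, Atp6v1a, Ccl17, Ccl3, Ccl4, Csf2, Cxcl16, Cxcl3, Cxcl9, Cybb, F10, Gsdmd, H2-D1, H2-K1, H2-Q7, Isg20, Lair1, Lamp1, Mx1, Plaur, Psmb7, Rel, Rela, Rps6, Tapbp, Tapbpl and Tnfaip3 were named. A dimmer probe differed in sign from the one used for Acp2, Actb, Bcl2, Csf3, Dusp3, Fas, Hbegf, Man2a2, Ncf1, Pparg, Tgfbr1 and Tnfsf13b. Promoters of 300 bases came from RefSeq (GRCm38.p6) for 10488 of the genes tested, and shares used the 8466 with 1 promoter. The result of 1 gene list is not reported here.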

Additional observations from a re-analysis of the deposited data

Results flagged for a closer look

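The LPS response of 6 genes differed between cells with and without fatty acid by the limma test of the difference itself. The LPS effect with fatty acid minus that without it was 1.82 for Scd1, 1.22 for Slc6a12, 0.93 for Bst1, 0.62 for Hsd17b4, -1.10 for Ptx3 and -1.52 for Aqp9.

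Among 370 named genes, 13 had 1 of the 4 LPS arrays whose gap to the nearest other array, as a share of the whole range, exceeded Dixon's 95% critical value. Chance flags about 1 in 20 such groups. On the array of experiment 1 these were Csf2rb (share 0.847, 11.5 against 9.32), Cxcr4 (0.857, 7.27 against 6.57) and Ptgs2 (0.859, 7.36 against 6.62) at the high end and Bbc3 (0.849, 6.95 against 7.4) at the low end. On that of experiment 2, Fos (0.872, 8.22 against 6.9) and Ppia (0.937, 13.97 against 13.69) stood high. On that of experiment 3, Serpinb2 (0.939, 13.17 against 11.76) and Nfkbia (0.934, 11.33 against 10.8) stood high and Map1lc3b (0.876, 6.34 against 6.72) low. On that of experiment 4, Ccl2 (0.905, 11.83 against 11.14), Ccl8 (0.884, 6.58 against 6.01) and Mx1 (0.833, 8.0 against 7.05) stood high and Ikbkg (0.984, 7.58 against 7.85) low.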

How the results depend on the processing

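The counts depended most on the scaling between arrays. Median scaling called 556 genes higher and 371 lower. It called 833 and 682 when fitted on the 7 arrays alone and 853 and 674 without the fatty acid array of experiment 1, both chosen after seeing the data. The cause was not tested. Leaving out 1 of the 7 arrays gave 927 to 1142 genes higher and 1356 to 1654 lower. The other fits gave 1053 to 1226 higher and 1603 to 1803 lower, apart from the paired ones. With the replicate block by experiment over all arrays 1454 rose and 2025 fell, and over the 3 pairs alone 922 and 1381. The interaction count of 6 became 20 with the replicate block and 0 with median scaling, where 237 genes had an unadjusted limma p below 0.05. These 237 are fewer than chance alone would be expected to give at that threshold. Of the 257 named genes that were called, none changed sign in any of the 21 alternatives that tested it. Median scaling ended 56 of these calls, the replicate block 1 over all arrays and 9 over the pairs, and the slide block 5.

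Leaving out single arrays ended 2 to 9 named calls for the LPS arrays and 13 to 16 for the unstimulated arrays. Without the LPS array of experiment 1 the calls of Actb and Rps6 were lost. Without the LPS array of experiment 2 the calls of Acp2, Actb, Dusp1, Mmp12 and Mmp9 were lost. Without the LPS array of experiment 3 the calls of Acp2, Atp6v1a, Ccl6, Cxcl9, Fcgr1, Mmp12, Mmp9, Myd88 and Rps6 were lost. Without the LPS array of experiment 4 the calls of Acp2, Actb, Atp6v1a, Cxcl9, Fcgr1, Mmp12, Myd88 and Ptafr were lost. Without the unstimulated array of experiment 1 the calls of Acp2, Actb, Atp6v1a, Camp, Ccl6, Cxcl9, Dusp1, Fcgr1, Gapdh, Irak2, Mmp12, Mmp9, Myd88, Nlrp3, Rela and Rps6 were lost. Without the unstimulated array of experiment 3 the calls of Acp2, Csf2rb, Cxcl9, Dusp1, Egr2, Fcgr1, Irak2, Mmp12, Mmp9, Myd88, Nlrp3, Ptafr and Rps6 were lost. Without the unstimulated array of experiment 4 the calls of Acp2, Actb, Atp6v1a, Ccl6, Csf2rb, Cxcl9, Dusp1, Fcgr1, Gapdh, Hp, Mmp12, Mmp9, Myd88, Ncf1, Nlrp3 and Rps6 were lost. Genes near background have limited precision, since 75 raised genes lay below it on all unstimulated arrays and 43 lowered genes on all LPS arrays.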
